A study of Mus musculus with 8 samples.

Results

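Protocadherins were measured in mouse hippocampus as the non-control array probes whose gene symbol, reached through the probe's RefSeq accession, starts with Pcdh, and each gene was read by the probe that was brightest over all 8 arrays. This rule found 46 of the 70 protocadherin genes in the reference gene table, among 20145 genes with a symbol and a probe. They were 7 of 14 genes of the alpha cluster, all 22 of the beta cluster, 6 of 22 of the gamma cluster and 11 of 12 genes outside the clusters. A total of 44 passed the filter on dim probes, which asks for a signal well above background in both samples of some group, and the gamma genes Pcdhga5 and Pcdhga10 did not. The rule did not use any difference between groups.

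Protocadherins are cell-surface proteins of the cadherin superfamily that bind the same protein on a neighbouring cell. The clustered genes lie side by side, and a neuron switches on a few of their promoters, so that each neuron carries its own combination of isoforms, which serves self-recognition of its branches. The C-type isoforms at the end of the alpha and gamma clusters are used more evenly across neurons. The unclustered genes are each regulated alone, and several act in axon growth, synapses and cell sorting, or in tissues other than brain.

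All mice were male C57BL/6J, 11 weeks old, with 8 mice per group according to the labels. SED mice were sedentary and ate placebo powder. ME mice did mild exercise and ate placebo powder. AX mice were sedentary and ate powder with astaxanthin, a carotenoid from the alga Haematococcus pluvialis, and AX+ME mice had both. The powder made up 0.5% of the food and held 2% astaxanthin. Each group had 2 samples of total RNA, with Cy3 as the dye of replicate 1 and Cy5 as that of replicate 2, and each sample was the only one on its array, all 8 arrays being on 1 slide. How 8 mice became 2 samples is not stated. Every p-value measures how far group differences disagree between the 2 dyes, pooled over all groups, and this spread may be technical. It is taken as equal in all groups, although spots varied more on the SED arrays. P-values against SED may therefore be too small. In bulk tissue, fewer cells of a type and less RNA per cell cannot be told apart.

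Between 63.2% and 76.2% of spots per array were well above background, and the number of arrays limits the precision. All 14 marker genes of hippocampal neurons were above background on both arrays of every group. Array columns below 70 held patches of dim spots on both SED arrays. There, 6.63% of probes on the array of SED replicate 1 and 9.15% on that of SED replicate 2 lay at least 0.8 on the log2 scale below the other arrays of the same dye, against at most 0.330% on any of the other 6 arrays. Of the 44 protocadherins tested, 19 had their probe in these columns, called dim columns below, and 25 from column 70 on. The SED arrays also held brighter places. The median of the 24 probes nearest to a protocadherin spot reached 0.43 and 0.54 above the other arrays there. The slide held each group in its own column of arrays, so a group and its place there cannot be told apart. The 16 markers of choroid plexus, which secretes cerebrospinal fluid, were all lower in ME and in AX+ME than in SED, with median log2 differences of -0.44 and -0.51. They were above background on both arrays of every group, and their summed level was 77.2 and 94.7 in SED, 67.5 and 78.1 in ME, 76.9 and 84.5 in AX and 68.0 and 69.7 in AX+ME. Of 5 pituitary markers tested, 4 fell in ME (list median -1.62), and the list medians were 0.13 in AX and 0.51 in AX+ME. The summed level of the pituitary list, which has 8 markers with a probe, was 1.67 to 1.74 in SED and 0.858 to 0.881 in ME. It was 1.303 to 1.34 in AX and 1.28 in both AX+ME samples. Of these 8 markers, 4, 2, 4 and 5 were above background on both arrays of SED, ME, AX and AX+ME. The 10 markers of hypothalamus had medians of -0.26, -0.23 and -0.23, and the 10 of meningeal fibroblasts had -0.21, -0.04 and 0.01. The part of these tissues in the protocadherin values was not tested.

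Levels are given as signal divided by the array's 75th percentile, and differences as log2 values from a limma fit of all 8 samples with group and dye as terms. No protocadherin passed an adjusted p of 0.05 in any comparison. The count was 0 of 44 for ME against SED, where 2.9% of the 27171 genes and transcripts tested passed. It was 0 of 44 for AX against SED, where 3.97% passed, and 0 of 44 for AX+ME against SED, where 7.81% passed. With AX+ME set against ME, or against AX, it was 0 of 44 as well, and there 0% of all genes passed. For the interaction, the exercise main effect and the astaxanthin main effect, 0 of 44 stood beside 0.438%, 0.655% and 0.71% of all genes. These counts moved with the samples used. Without any 1 of the 6 treated samples, limma called 0 of 44 protocadherins and 0 of 27171 genes against SED, apart from 1 gene in AX without AX replicate 1. Fits on the compared groups alone also gave 0 of 27171 for each treatment. Without SED replicate 1, limma called 9, 10 and 10 of 44 in ME, AX and AX+ME, beside 17.5%, 18.7% and 19.9% of all genes. Without SED replicate 2 it called 2, 3 and 2, beside 4.87%, 5.65% and 7.72%. With normexp background correction it called 1, 7 and 8, beside 6.51%, 14.8% and 20.6%.

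At an unadjusted p under 0.05 in limma, 11 protocadherins (25% of 44) differed in ME against SED, beside 23.9% of all genes. The count was 16 (36.4%) in AX against SED beside 27.4%, and 16 (36.4%) in AX+ME against SED beside 32.5%. It was 5 for the interaction (beside 14.6%), 8 for the exercise main effect (beside 19.2%) and 10 for the astaxanthin main effect (beside 26.2%). Between treated groups it was 0 of 44 for AX+ME against ME, where 8.23% of all genes had such a p, and 0 of 44 for AX+ME against AX, where 5.96% did. The 3 comparisons against SED share its 2 samples.

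Differences from SED leaned to lower values. In ME, 33 of 44 protocadherins were lower than in SED with a median log2 difference of -0.09, in AX 30 with a median of -0.13 and in AX+ME 31 with a median of -0.11. The median over all genes was -0.05 in each of these comparisons. In ME, 26 of 44 (59.1%) were lower than SED in both dyes, beside 42.4% of all genes. In AX these were 21 (47.7%, beside 42%) and in AX+ME 20 (45.5%, beside 40.9%). Among the 25 genes with a probe outside the dim columns, 23 were lower in ME, 20 in AX and 21 in AX+ME, with medians of -0.11, -0.12 and -0.11. Only the counts in both dyes have the share of all genes beside them, so the others are not read as particular to protocadherins. From column 70 on, protocadherin spots lay at a median distance of 0.13 and 0.14 from the other arrays of their dye in SED. In the treated samples these distances were 0.06 to 0.09. Against ME and AX, the median log2 differences of AX+ME were -0.02 and -0.02.

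Within 1 dye, most protocadherins, like most genes, lay in a narrow band over the 4 groups. The highest array exceeded the lowest by a median of 1.20-fold in Cy3 and 1.22-fold in Cy5 over the 44 genes, beside 1.21-fold and 1.23-fold over all genes. In both dyes, 31 of 44 (70.5%) stayed under a 1.5-fold range, as did 70.3% of all genes. This held for 6 of 7 alpha, 19 of 22 beta, 1 of 4 gamma and 5 of 11 unclustered genes. The 13 wider genes were Pcdhac1, Pcdhb1, Pcdhb2, Pcdhb17, Pcdhga1, Pcdhga9, Pcdhgb1, Pcdh8, Pcdh9, Pcdh12, Pcdh15, Pcdh17 and Pcdh18. Pcdhga9 was saturated on all 8 arrays, so its range is not a measured fold. It is included here and in every count of 44 genes.

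The group that stood apart was most often SED, among protocadherins as among all genes. Genes with a probe saturated on all 8 arrays have no order and were left out here, which removed Pcdhga9. SED was above ME, AX and AX+ME in both dyes for 14 of 43 protocadherins (32.6%), beside 27.7% of all 26473 such genes, and below them for 5 (11.6%), beside 14.9%. ME was above the other groups for 0 and below for 5 (11.6%), beside 5.73% and 8.34% of all genes. AX was above for 2 and below for 2, beside 4.94% and 9.25%. AX+ME was above for 2 and below for 5, beside 9.98% and 9.79%. The 14 genes highest in SED were Pcdha8, Pcdhac2, Pcdhb2, Pcdhb3, Pcdhb7, Pcdhb14, Pcdhb16, Pcdhb20, Pcdhb21, Pcdhb22, Pcdh7, Pcdh10, Pcdh18 and Pcdh20. The 5 lowest in SED were Pcdhac1, Pcdhga1, Pcdhgb1, Pcdh1 and Pcdh19. Pcdhac1 and Pcdhga1 passed the filter through treated groups alone, so a low SED was built into their being tested. Pcdhac1 was not above background on either SED array or in AX+ME replicate 2, which have no order. Pcdhb2 passed through SED and ME alone, so its place above AX and AX+ME was partly built in.

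**Figure D1:**
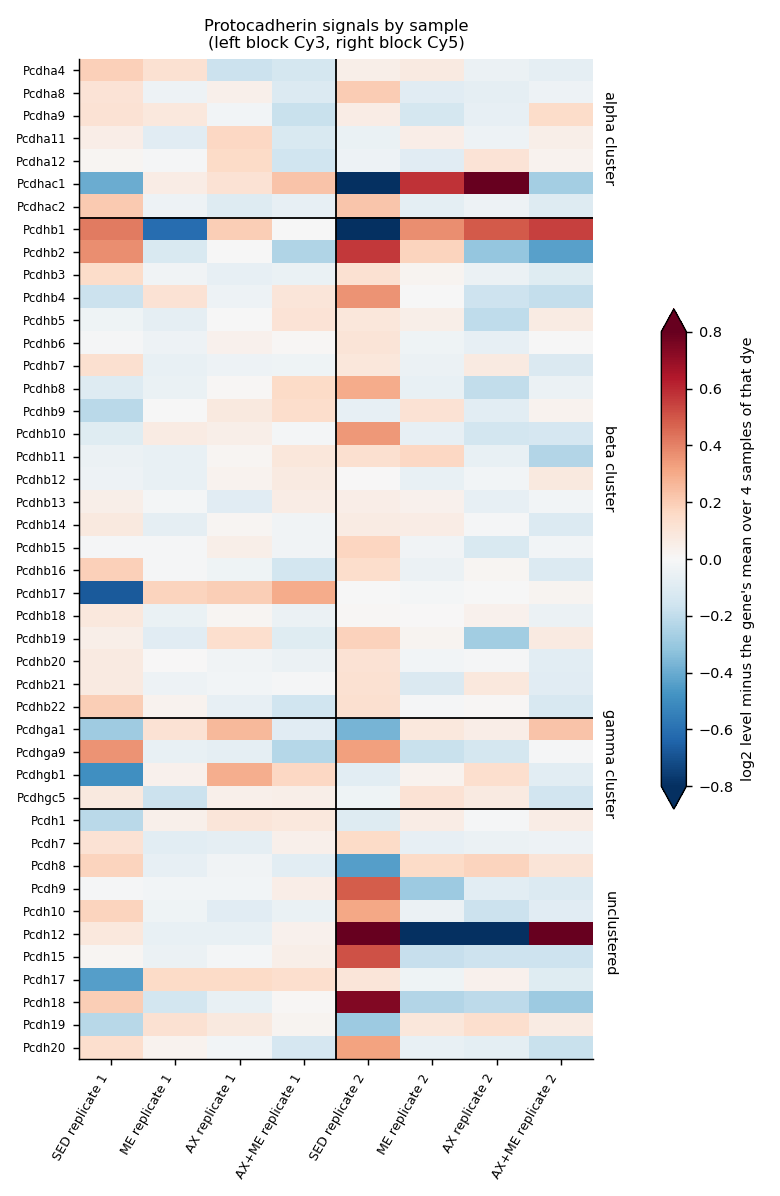
Each row is a protocadherin that passed the filter and each column a sample, with the 4 Cy3 samples in the left block and the 4 Cy5 samples in the right, and colour gives the log2 level minus the gene's mean over the samples of that dye. The strongest colours are in the SED columns, in the dim genes Pcdhac1 and Pcdhb1, and in Pcdh12.

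The unclustered gene with the smallest p-values was Pcdh19, an X-linked adhesion protein of neurons whose mutations cause an epilepsy in girls and women. Its level was 8.93 and 9.01 in SED, 11.3 and 11.7 in ME, 11.0 and 12.1 in AX and 10.6 and 11.5 in AX+ME. Both SED samples were below all 6 others, and the 3 treated groups overlapped. The difference from SED was 0.36 (SE 0.0587, adjusted p = 0.0587 in limma) in ME, 0.36 (adjusted p = 0.0511) in AX and 0.30 (adjusted p = 0.0540) in AX+ME. The interaction, by which the combination fell short of the sum of both treatments, was -0.42 (SE 0.0829, adjusted p = 0.164). Its spot lies in column 59, inside the dim columns. On the arrays of SED replicates 1 and 2 the spot was 0.30 and 0.38 lower, on the log2 scale, than the other arrays of its dye, and the median of the 24 nearest probes was lower by 0.28 and 0.23. The part of this dim area in the difference was not tested.

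Pcdh10, a partner of the actin-regulating WAVE complex with a role in axon growth and synapse removal, went the other way. Its level was 4.90 and 5.22 in SED, 4.22 and 4.09 in ME, 4.07 and 3.75 in AX and 4.16 and 3.97 in AX+ME. Both SED samples were above all 6 others. The log2 difference was -0.28 (SE 0.0703, adjusted p = 0.110) in ME, -0.37 (adjusted p = 0.0632) in AX and -0.32 (adjusted p = 0.0656) in AX+ME, with an interaction of 0.34 (adjusted p = 0.260). The spot is in column 67. A second probe of Pcdh10, in column 144 and so outside the dim columns, read 1.02 and 1.09 in SED, 0.950 and 0.999 in ME, 0.874 and 0.930 in AX and 0.958 and 0.909 in AX+ME. It gave smaller differences of the same sign, -0.11, -0.23 and -0.18.

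The stretches of 250 bases before the starts of Pcdh10 and Pcdh19 are shown because these unclustered genes lay closest to the threshold on opposite sides. Sequences are from RefSeq on build GRCm38.p6, at chr3:45378148-45378397 on the plus strand and chrX:133688994-133689243 on the minus strand. Capitals mark the CCAAT box (CCAAT) and the GC box (GGGCGG), searched on both strands.
Pcdh10: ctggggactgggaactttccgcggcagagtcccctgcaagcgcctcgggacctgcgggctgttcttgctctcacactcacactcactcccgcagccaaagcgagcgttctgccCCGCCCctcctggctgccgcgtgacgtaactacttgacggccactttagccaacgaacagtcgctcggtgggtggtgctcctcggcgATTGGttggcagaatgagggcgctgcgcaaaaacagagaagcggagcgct
Pcdh19: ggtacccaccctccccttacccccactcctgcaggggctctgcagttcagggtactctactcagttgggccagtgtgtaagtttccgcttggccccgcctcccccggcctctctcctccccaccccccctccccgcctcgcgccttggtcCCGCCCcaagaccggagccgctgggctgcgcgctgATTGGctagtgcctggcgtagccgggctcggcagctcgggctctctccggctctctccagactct
The GC content was 63.2% before Pcdh10 and 69.2% before Pcdh19, where the median of 32851 promoters was 52.4%. Entries existed for 9 protocadherins, 10 stretches in all with a pair of overlapping ones for Pcdh9. A CCAAT box was in 9 of the 10 stretches and in 33.8% of all promoters, and a GC box in 4 of 10 and in 32.7%. The cAMP response element TGACGTCA was in 0 of 10 and in 1.55% of all promoters. The E-box CACGTG was in 0 of 10 and in 6.02%, and the TATA box TATAAA was in 2 of 10, those of Pcdh8 and Pcdh15, and in 12.4%.

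Pcdh20, an adhesion molecule of which less is known, read 11.8 and 14.4 in SED, 11.0 and 11.1 in ME, 10.6 and 10.9 in AX and 9.83 and 10.2 in AX+ME. SED was highest and AX+ME lowest in each dye. The log2 difference was -0.24 in ME, -0.28 in AX and -0.38 in AX+ME (adjusted p = 0.192, adjusted p = 0.135 and adjusted p = 0.0678), and the exercise main effect was -0.17 (adjusted p = 0.243). The probe is in column 28. Its 24 neighbours were 0.26 higher on the array of SED replicate 1 and 0.03 higher on that of SED replicate 2.

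Pcdh1 and Pcdh7 are adhesion proteins of the same branch of the family, and their probes lie outside the dim columns, in columns 98 and 145. Pcdh1 read 2.01 and 2.29 in SED, 2.40 and 2.56 in ME, 2.50 and 2.44 in AX and 2.48 and 2.56 in AX+ME. Both SED samples were the lowest, with log2 differences of 0.21, 0.20 and 0.23 (adjusted p = 0.177, adjusted p = 0.161 and adjusted p = 0.106), and Pcdh1 was picked out after its values were seen. Pcdh7 read 0.963 and 0.873 in SED, 0.839 and 0.748 in ME, 0.847 and 0.760 in AX and 0.916 and 0.762 in AX+ME. SED was the highest in each dye but the Cy5 value of SED lay below the Cy3 value of AX+ME. The log2 difference of Pcdh7 was -0.21 in ME (SE 0.0582, adjusted p = 0.128) and -0.19 in AX, and its interaction was 0.27 (adjusted p = 0.273). A dimmer probe of Pcdh7 gave -0.40, -0.44 and -0.30 against SED, while another read 0.474 in AX replicate 2 and between 0.0958 and 0.121 in the other 7 samples.

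Pcdh12, an adhesion protein of endothelial cells, had the widest spread among unclustered genes. Its level was 0.0748 and 0.277 in SED, 0.0677 and 0.0608 in ME, 0.0676 and 0.0803 in AX and 0.0724 and 0.451 in AX+ME. The high values were 2 of the Cy5 samples, SED replicate 2 and AX+ME replicate 2. In Cy3 all 4 samples lay within 1.11-fold, and the probe is in column 78. The fitted differences followed those 2 samples, with 1.49 for AX+ME against ME (SE 0.764, adjusted p = 0.659) and 1.29 for AX+ME against AX (adjusted p = 0.937). Within Cy3 alone these were 0.10 and 0.10.

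Other unclustered genes stood apart in 1 SED sample. Pcdh17, a protein of presynaptic assembly, read 6.71 in SED replicate 1 and between 9.99 and 13.1 in the other 7 samples. Pcdh8, also called arcadlin, which activity induces and which drives uptake of N-cadherin at synapses, read 8.46 in SED replicate 1, 4.59 in SED replicate 2 and between 6.69 and 7.34 elsewhere, so that its SED samples lay on either side of all others. Pcdh9, an adhesion protein of neurons, read 7.49 in SED replicate 2 and between 4.39 and 5.05 in the other 7 samples. Pcdh15, a part of the tip link of hair cells, read 0.765 there and between 0.430 and 0.481 elsewhere, and Pcdh18 read 0.838 there and between 0.380 and 0.483 elsewhere. The 24 neighbours on the array of SED replicate 2 were higher by 0.51 around Pcdh9 in column 12, 0.47 around Pcdh15 in column 7 and 0.34 around Pcdh18 in column 73. The probes of Pcdh17 and Pcdh8 are in columns 57 and 23. Dimmer probes of Pcdh9 and Pcdh15 that passed the filter did not show the high value of SED replicate 2. For Pcdh9, SED read 0.353 and 0.300 in column 125, and 0.0977 and 0.104 in column 4. For Pcdh15, SED replicate 2 read 0.0708, 0.0393 and 0.0534 in columns 77, 152 and 148, each below SED replicate 1. Differences of ME from SED were -0.25, 0.18 and 0.18 by these probes, and -0.38 by the brightest.

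Among alpha genes, the C-type isoform Pcdhac2, which serotonergic neurons use to space their axons, had the smallest p-values. Its level was 10.03 and 10.9 in SED, 8.45 and 8.86 in ME, 8.08 and 9.09 in AX and 8.31 and 8.70 in AX+ME. Both SED samples were above all 6 others. The log2 difference was -0.27 (SE 0.0556, adjusted p = 0.0828 in limma) in ME, -0.29 (adjusted p = 0.0659) in AX and -0.30 (adjusted p = 0.0510) in AX+ME, and the interaction was 0.26 (adjusted p = 0.269). The spot is in column 89, where the 24 neighbours were 0.12 and 0.16 higher on the 2 SED arrays beside 0.27 and 0.30 for the spot itself. A second and dimmer probe of Pcdhac2, in column 108, gave the opposite sign, with 0.16, 0.16 and 0.10 against SED.

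Pcdhac1 and Pcdhgc5 were the other C-type isoforms with a probe. Pcdhac1 was not well above background on either SED array, on which it read 0.0153 and 0.00846. It read 0.0210 and 0.0309 in ME, 0.0218 and 0.0407 in AX and 0.0235 and 0.0171 in AX+ME. It passed the filter through ME and AX, where it was high, so a difference from SED was built into its being tested. Both samples of ME and of AX were above both SED samples. AX+ME replicate 2 and the SED samples, none being above background, have no order. Its bound, taken on group means, was 1.496-fold above SED in ME and 1.75-fold in AX. These are not minima in each dye. In Cy3 the levels of 0.0210 in ME and 0.0218 in AX lay nearer to the 0.0153 of SED than these folds. In AX+ME 1 of 2 arrays was above background, so no bound is given there. The limma fit used the signals not above background as read. It gave adjusted p = 0.236 in ME, adjusted p = 0.158 in AX and adjusted p = 0.301 in AX+ME. Each bound sets the brighter group's mean against the lowest signal that counts as well above background, or the spot's own signal where higher. Its spot is in column 11, and its 24 neighbours were lower by 0.34 and 0.53 on the SED arrays. Pcdhgc5, a gamma C-type isoform found at inhibitory synapses, read 0.0766 and 0.0711 in SED, 0.0644 and 0.0790 in ME, 0.0745 and 0.0764 in AX and 0.0749 and 0.0655 in AX+ME. The probe of Pcdhgc5 is in column 133. These ranges overlapped in every pair of groups, and the differences from SED were -0.05, 0.03 and -0.08 with an SE of 0.132.

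Of the other 5 alpha genes, whose proteins each come from a separate first exon, Pcdha4 was named most often. It read 0.214 and 0.183 in SED, 0.203 and 0.186 in ME, 0.166 and 0.171 in AX and 0.170 and 0.169 in AX+ME. The 4 samples with astaxanthin lay below the 4 without it. Its probe is in column 37. The astaxanthin main effect of Pcdha4 was -0.22 (SE 0.0595, adjusted p = 0.126), and AX+ME against ME gave -0.20 (adjusted p = 0.620). Pcdha12 was lower in AX+ME than in AX by 0.20 (adjusted p = 0.868).

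**Figure D2:**
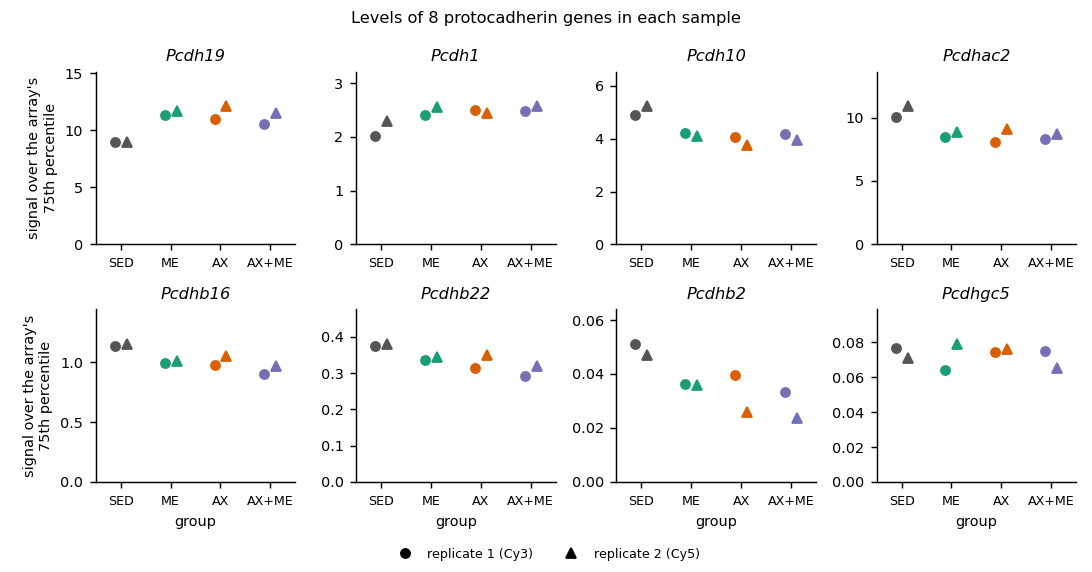
Signal over the array's 75th percentile, on linear axes from 0, is shown in each of the 8 samples for 8 protocadherins, with circles for replicate 1 (Cy3) and triangles for replicate 2 (Cy5). SED lies below all treated samples for Pcdh19 and Pcdh1 and above them for Pcdh10, Pcdhac2, Pcdhb16, Pcdhb22 and Pcdhb2, while the groups of Pcdhgc5 overlap.

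The beta cluster was the only subfamily with a probe for every gene, and its genes, each a single exon with its own promoter, had the narrowest ranges within a dye, with a median of 1.14-fold in Cy3 and 1.18-fold in Cy5. Of 22 genes, 18 were lower in ME than in SED, 18 in AX and 17 in AX+ME, with medians of -0.09, -0.12 and -0.12. With a probe outside the dim columns, 15 of 16 were lower in ME, 15 in AX and 14 in AX+ME, and inside them 3 of 6 in each. The share of all genes that were lower is not set beside these counts, so they are not read as particular to the beta cluster. In limma 1, 4 and 6 of the 22 had an unadjusted p under 0.05, and each of those was lower, where 23.9%, 27.4% and 32.5% of all genes had such a p. Between treated groups, 12 of 22 were lower in AX+ME than in ME and 12 lower than in AX, with medians of -0.01 and -0.02. The median 95% interval of a beta gene reached 0.22 to either side of its log2 difference, and the widest, that of Pcdhb1, reached 1.91.

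Pcdhb16 read 1.14 and 1.15 in SED, 0.991 and 1.01 in ME, 0.973 and 1.05 in AX and 0.901 and 0.969 in AX+ME. SED was above all 6 other samples and AX+ME was lowest in each dye. The log2 difference was -0.19 (SE 0.0561, adjusted p = 0.138) in ME, -0.18 (adjusted p = 0.139) in AX and -0.29 (adjusted p = 0.0528) in AX+ME. Against ME and AX, AX+ME was lower by 0.10 and 0.12 (adjusted p = 0.683 and adjusted p = 0.895).

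Pcdhb22 read 0.375 and 0.380 in SED, 0.335 and 0.346 in ME, 0.313 and 0.351 in AX and 0.293 and 0.319 in AX+ME. The order of the groups was the same as for Pcdhb16 at both ends, with SED highest and AX+ME lowest in each dye. The log2 difference was -0.15 (SE 0.0617, adjusted p = 0.234) in ME, -0.19 (adjusted p = 0.147) in AX and -0.30 (adjusted p = 0.0566) in AX+ME, and -0.15 (adjusted p = 0.613) for AX+ME against ME. The probes of Pcdhb16 and Pcdhb22 are in columns 108 and 144. On the SED arrays, the 24 neighbours of Pcdhb22 differed by 0.05 and 0.02 from the other arrays and the spot itself by 0.26 and 0.14.

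Pcdhb2 had the lowest difference in the beta cluster, at a signal near background. Its level was 0.0511 and 0.0472 in SED, 0.0363 and 0.0360 in ME, 0.0394 and 0.0258 in AX and 0.0334 and 0.0236 in AX+ME, and it was not well above background in AX replicate 2 and AX+ME replicate 2. It passed the filter through SED and ME. SED was above all others in each dye, and the Cy5 values of AX and AX+ME, not being above background, have no order. The log2 difference was -0.44 (SE 0.174, adjusted p = 0.224) in ME, -0.62 (adjusted p = 0.115) in AX and -0.81 (adjusted p = 0.0628) in AX+ME. Its 24 neighbours in column 88 and around it were 0.05 and 0.02 lower on the SED arrays. The other beta gene near background, Pcdhb1, read 0.0475 and 0.00754 in SED, 0.0234 and 0.0260 in ME, 0.0408 and 0.0281 in AX and 0.0355 and 0.0293 in AX+ME, and 5 of its 8 arrays were above background. Pcdhb1 passed the filter through AX+ME alone. SED replicate 1 was the highest of all 8, while SED replicate 2, ME replicate 2 and AX replicate 2, not being above background, have no order. With the probe in column 7, the difference of Pcdhb1 of 0.84 in AX against SED had an SE of 0.720 (adjusted p = 0.492 in limma).

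Some beta genes of the dim columns had an SED sample outside the range of all treated samples. Pcdhb17 read 0.843 in SED replicate 1 and between 1.52 and 1.80 in the other 7 samples. Pcdhb10 read 0.301 in SED replicate 1 and 0.554 in SED replicate 2, on either side of 0.319 to 0.415 in the others. Pcdhb4 did the same, with 0.381 and 0.716 on either side of 0.418 to 0.556. These probes are in columns 16, 52 and 2.

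Between treated groups, the beta genes named by the smallest p-values beside Pcdhb2, Pcdhb16 and Pcdhb22 were Pcdhb12, Pcdhb5 and Pcdhb13. Pcdhb12 was higher in AX+ME than in ME by 0.13 (SE 0.0533, adjusted p = 0.613). Pcdhb5 and Pcdhb13 were higher in AX+ME than in AX by 0.19 and 0.09 (adjusted p = 0.912 and adjusted p = 0.949).

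Pcdhb3 was printed 10 times on each array, in columns on both sides of the dim area's edge. Its level, the mean of these spots, was 0.776 and 0.771 in SED, 0.689 and 0.719 in ME, 0.672 and 0.687 in AX and 0.678 and 0.661 in AX+ME. Both SED samples were the highest, and the differences from SED were -0.14, -0.19 and -0.21 (adjusted p = 0.225, adjusted p = 0.120 and adjusted p = 0.0821). With spots marked as outliers included, the 10 spots varied by 10.5% (SD over mean) in SED replicate 1 and by 22.6% in SED replicate 2, and by 2.63% to 6.82% on the other 6 arrays. In SED replicate 2 they ran from 0.457 to 1.16. Below column 70 its 6 spots varied by 27.9%, and from column 70 on its 4 spots varied by 2.53%. In SED replicate 1 these values were 8.64% and 8.81%. Over the 4 spots from column 70 on, the mean of SED replicates 1 and 2 was 0.717 and 0.718, and it lay between 0.635 and 0.722 on the other arrays. Over the 6 spots below column 70 it was higher in SED, at 0.816 and 0.806, and between 0.664 and 0.710 on the other arrays.

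**Figure D3:**
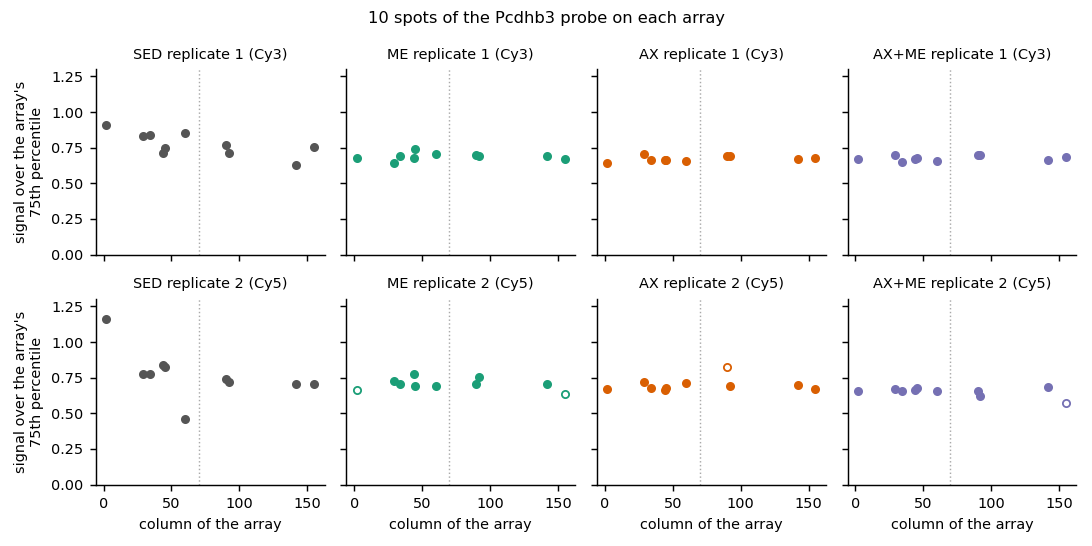
Signal over the array's 75th percentile is plotted against the array column for the 10 spots of the Pcdhb3 probe, 1 panel per sample, with open circles for spots marked as outliers by the scanner software and a dotted line at column 70. The spots of SED replicate 2 run from 0.457 to 1.16 and those of the 6 treated arrays stay close to a level line.

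Only 4 gamma genes could be tested. Pcdhga9 was saturated on all 8 arrays, at levels of 55.8 and 43.0 in SED, 41.8 and 30.3 in ME, 41.4 and 31.1 in AX and 37.1 and 34.0 in AX+ME, so no fold or order is given. Its spot is in column 60, and on the SED arrays its 24 neighbours were lower by 0.24 and 0.58. A second probe of Pcdhga9, never saturated and outside the dim columns, read 0.999 and 0.844 in SED, 0.979 and 0.817 in ME, 0.818 and 0.865 in AX and 0.780 and 0.883 in AX+ME. Its groups overlapped, with differences from SED of -0.04, -0.13 and -0.15.

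Pcdhga1 read 0.0300 and 0.0269 in SED, 0.0396 and 0.0370 in ME, 0.0438 and 0.0362 in AX and 0.0343 and 0.0408 in AX+ME. It was not well above background in SED replicate 2 and passed the filter through the treated groups, where it was high. SED was lowest, with log2 differences of 0.43, 0.48 and 0.40 (SE 0.139, adjusted p = 0.167, adjusted p = 0.118 and adjusted p = 0.135). Its spot is in column 35, where 10 of its 24 neighbours on the array of SED replicate 1, and 0 of 24 on that of SED replicate 2, were at least 0.8 lower. Pcdhgb1 read 0.0448 and 0.0769 in SED, 0.0646 and 0.0833 in ME, 0.0772 and 0.0894 in AX and 0.0707 and 0.0770 in AX+ME. Its differences from SED were 0.32, 0.50 and 0.33 (SE 0.174, adjusted p = 0.335, adjusted p = 0.160 and adjusted p = 0.260), with its probe in column 34, and in Cy5 SED and AX+ME were nearly level.

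The surroundings of a spot differed far more on the SED arrays than elsewhere. Around the 53 spots of tested protocadherins, the median of the 24 nearest probes ran from -0.43 to 0.43 on the array of SED replicate 1 and from -0.58 to 0.54 on that of SED replicate 2. On the other 6 arrays it stayed between -0.15 and 0.11. In the dim columns the spots of protocadherins lay at a median distance of 0.30 and 0.40 from the other arrays of the dye in the 2 SED samples, and of 0.06 to 0.11 in the other 6. From column 70 on the distances were 0.13 and 0.14 in SED and 0.06 to 0.09 in the others.

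**Figure D4:**
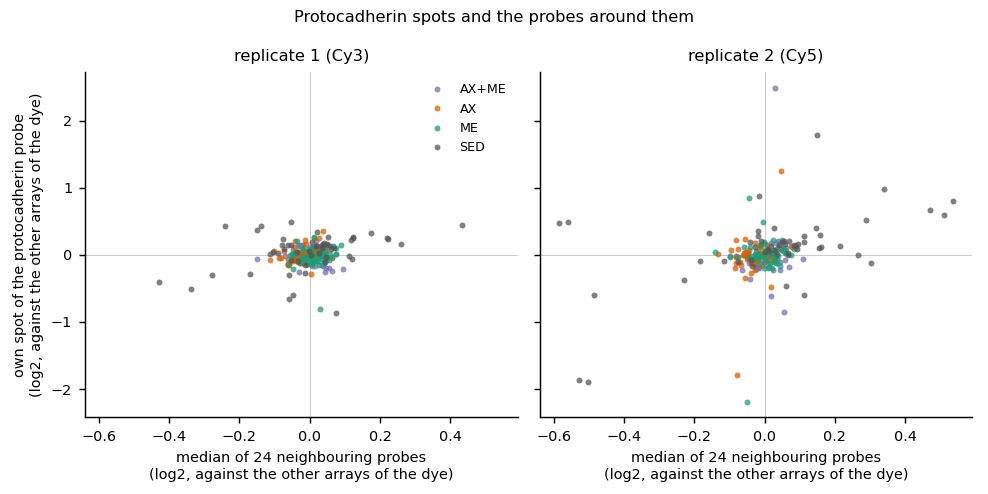
The log2 deviation of each protocadherin spot from the other arrays of its dye (vertical axis) is plotted against the median deviation of the 24 probes nearest to it (horizontal axis), with replicate 1 in the left panel and replicate 2 in the right and colours for the groups. Horizontally the SED points reach from -0.58 to 0.54, and those of the other groups stay between -0.15 and 0.11.

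Genes that act with the protocadherins were read from lists. Of 20 genes of promoter choice and chromatin, which include the insulator protein gene Ctcf and the cohesin subunits that fold the clusters, 0 passed in ME or AX against SED, beside 2.9% and 3.97% of all genes. In AX+ME against SED 1 passed, beside 7.81% of all genes. This was Smc3, a cohesin subunit, which fell by 0.32 (adjusted p = 0.0456). The medians of this list were -0.06, -0.06 and -0.09. Of 27 genes tested for binding partners, cleavage and signalling, 0 passed in ME or AX, and 2 passed in AX+ME against SED, beside the same 7.81%. Ncstn, a subunit of the gamma-secretase that cleaves protocadherins in the membrane, rose by 0.65 (adjusted p = 0.0338) and Abi2, a subunit of the WAVE complex, fell by 0.41 (adjusted p = 0.0483). The medians of that list were -0.03, -0.08 and -0.06.

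Of 36 other genes of the cadherin superfamily tested, 3 passed in ME, 1 in AX and 3 in AX+ME against SED, beside 2.9%, 3.97% and 7.81% of all genes, and the medians were -0.07, -0.07 and -0.09. Clstn2, a calsyntenin of synapses, rose by 0.67 (adjusted p = 0.0258) in ME, 0.67 (adjusted p = 0.0251) in AX and 0.61 (adjusted p = 0.0265) in AX+ME, with a probe in column 58 of the dim columns. Fat1, a giant cadherin, fell by 0.50 in ME (adjusted p = 0.0413) and by 0.50 in AX+ME (adjusted p = 0.0334), with a probe in column 25. Cdh1, the epithelial cadherin, fell by 0.79 in ME (adjusted p = 0.0325), and Fat2 rose by 0.75 in AX+ME (adjusted p = 0.0265), both with probes from column 70 on. The Cdh1 probe was not above background on every array. Its call in limma was lost without the dye term (adjusted p = 0.246) and with no filter on dim probes (adjusted p = 0.0559). It was kept with quantile normalization (adjusted p = 0.0214) and with normexp (adjusted p = 0.0458). In limma on the probes from column 70 on alone, 0 of 17652 genes passed in ME or in AX, and 2.66% passed in AX+ME. There Cdh1 had an adjusted p of 0.0899 and Smc3 one of 0.0507, Fat2 and Ncstn still passed (adjusted p = 0.0468 for each), and another probe of Abi2 gave -0.03. Each call named from these 3 lists was lost when any 1 treated sample was left out and in fits on the compared groups alone. Without SED replicate 2 the calls of Cdh1 and Clstn2 remained and those of Fat1, Fat2, Ncstn, Abi2 and Smc3 were lost, and without SED replicate 1 that of Smc3 was lost. For the same 3 lists, 0 genes passed in the comparisons between treated groups.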

How the data were processed

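The authors deposited 1 scanner file per array, made with Agilent Feature Extraction 11.0.1.1 according to the submitters' processing notes. Its processed signal is an intensity on a linear scale after background subtraction and spatial detrending, with probes designed on mm9, per the file headers. The signal of the dye that held the sample was used, without control spots and spots marked as outliers. Spots of a probe were averaged, set relative to the 75th percentile of the array's probes (floor 0.005) and put on a log2 scale. Symbols came from RefSeq accessions (GRCm38.p6). limma 3.58.1 in R 4.3.3 fitted 8 samples with group and dye (3 residual and 1.54 prior degrees of freedom), with two-sided Benjamini-Hochberg adjustment over 27171 genes and transcripts. Dye is also the replicate number, so the dye term is the replicate block. The main effects average over diets or activity. The fit was tested on simulated data with independent noise of equal spread in all groups and no patches. That test does not cover the wider spread of the SED arrays. Named members are, per comparison, up to 6 with the smallest unadjusted p and the same direction in both dyes. Described in every sample are those named in at least 2 comparisons, each subfamily's highest and lowest difference, and C-type isoforms. Members and lists were chosen with earlier results of these data known. The planned normexp alternative used median signals, since the files hold no mean signal. Alternatives covered scaling, background, filters, probes, array columns and each sample left out.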

Additional observations from a re-analysis of the deposited data

Results flagged for a closer look

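Pcdhga9, saturated in its own dye on all 8 arrays, was also well above background in the dye that held no sample on 3 arrays, those of AX replicate 1 and both AX+ME replicates, and on 0 of the 2 SED arrays. No other protocadherin was above background in that dye.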

How the results depend on the processing

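The count of 0 protocadherins past the threshold held for AX+ME against ME and against AX under every alternative run. Against SED it did not hold under all. Against SED, quantile normalization gave 1, 1 and 1 in ME, AX and AX+ME, beside 2.92%, 3.24% and 5.75% of all genes. Normexp gave 1, 7 and 8, beside 6.51%, 14.8% and 20.6%. It also gave 1 for the exercise and 1 for the astaxanthin main effect, beside 2.19% and 3.89%. With probes above background on all 8 arrays, 1, 3 and 5 of 39 were called, beside 5.30%, 7.64% and 12.0%. In AX and AX+ME, the percentile over probes above background on all arrays gave 1 and 1, beside 3.52% and 7.10%. No filter gave 1 and 3 of 46, beside 3.21% and 5.27%. Leaving out saturated probes gave 1 and 2, beside 4.49% and 8.35%. Against SED, leaving out each sample in turn gave 0 to 9 (ME), 0 to 10 (AX) and 0 to 10 (AX+ME). It gave 0 to 8 for the astaxanthin main effect, 0 to 6 for the exercise main effect and 0 to 5 for the interaction. The highest counts were without SED replicate 1, and without SED replicate 2 they were 2, 3, 2, 1, 1 and 1. Such fits leave SED with 1 sample, assumed to vary like the other groups. From column 70 on, 0 of 29 were called in any comparison, with 470 of 17652 genes called for AX+ME against SED and 0 for ME and AX. With the compared groups alone, 0 of 27171 genes were called against SED. Without the replicate block (no dye term) 0 of 44 were called in every comparison, and the smallest adjusted p against SED was 0.0805. Reversals came from a gene's other probes. The second probe of Pcdhac2 turned the differences of ME, AX and AX+ME from SED to 0.16, 0.16 and 0.10, and gave 0.051 and 0.045 for the astaxanthin and exercise main effects and -0.23 for the interaction. The interaction of Pcdh7 became -0.072 with the mean of its probes and -1.03 by another probe. Alternatives on kept outliers, both SED samples left out and other probes were added after seeing the data. The cause of these changes was not tested. Among the values of named genes, 911 kept direction and side of the threshold and 37 came to pass it.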
